A study of Mus musculus with 14 samples.

Results

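Creatine kinase (CK) moves a phosphate group between ATP and creatine, and the 6 genes described here make its subunits, import creatine or begin its synthesis. They are Ckm, Ckb, Ckmt2 and Ckmt1, the muscle, brain, sarcomeric mitochondrial and ubiquitous mitochondrial subunits, Slc6a8, the creatine transporter of the cell membrane, and Gatm, the enzyme of the first step of creatine synthesis. They were taken by gene name from a table of 49315 genes in left ventricular RNA of mice. All 6 had reads, and 5 passed the filter on low counts that left 15292 genes for testing. Ckmt1, with 78 reads over 14 libraries, did not.

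Wild-type (WT) mice and HCN4F mice were compared after transverse aortic constriction (TAC), which narrows the aorta and loads the left ventricle, or after Sham surgery. HCN4F is a knock-in in which a tyrosine of the C-linker of the pacemaker channel gene Hcn4 is replaced by phenylalanine, a gain-of-function change present in every cell and not in cardiomyocytes alone. The mice were males of 10 to 12 weeks at surgery, and hearts were taken 5 weeks later, so that age and time were the same in all groups. There were 4 WT-Sham, 4 HCN4F-Sham, 4 HCN4F-TAC and 2 WT-TAC libraries (replicates 2 and 3). Further samples of the WT-TAC group are not analysed here.

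In cardiomyocytes, mitochondrial CK charges creatine where ATP is made and cytosolic CK recharges ATP where it is used, at the myofibril and the calcium pump. Cytosolic CK is a dimer of M and B subunits, and the adult ventricle uses mostly the M subunit, whereas the B subunit is typical of the fetal heart, brain and many non-muscle cells. A higher share of the B subunit and a lower creatine content are classical features of the overloaded heart. Cardiomyocytes make little creatine and take it up from the blood through the transporter.

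Libraries held 22309914 to 35210939 counts (median 27676182), so a count of 0 to 3 reads corresponds to at most 0.0859 to 0.137 CPM (counts scaled to library size). Such limits cover counting error only. The labelled tissue was checked with 9 cardiomyocyte genes, whose summed level was 59452 to 79310 CPM, and with 7 skeletal muscle genes, which summed to 1.22 to 2.28 CPM. The cardiomyocyte sum was lowest in HCN4F-TAC (59452 to 66350 CPM) and highest in WT-Sham (76839 to 79310 CPM). On TAC 4 of the 9 fell and 2 rose in HCN4F (13.6% of all tested genes passed), and 2 fell in WT (4.54% passed), by edgeR. Of the 2 skeletal muscle genes with enough reads to test, 1 rose on TAC in HCN4F. These are bulk samples, in which fewer cells of a type and less RNA per cell cannot be told apart. Hcn4 itself does not check the labels, since the knock-in changes a codon and not the number of reads.

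The cytosolic genes Ckm and Ckb encode closely related proteins, and their coding sequences have the same length of 1146 bases. Over 1143 aligned bases they were 76.4% identical, and their longest identical run was 20 bases. Around that run the coding sequences read as follows, from base 58 to base 137 counted from the start codon in the GENCODE transcripts of GRCm38, with the bases that differ between the genes in capitals. They are shown because every ratio of Ckb to Ckm below rests on telling their reads apart.
Ckm: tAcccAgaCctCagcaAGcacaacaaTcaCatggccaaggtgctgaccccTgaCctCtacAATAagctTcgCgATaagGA
Ckb: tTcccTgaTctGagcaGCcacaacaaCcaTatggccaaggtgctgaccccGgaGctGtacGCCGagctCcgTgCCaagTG
With transcripts read in their own direction only, no stretch of 50 bases of the Ckm transcript was found in a transcript of another gene. For Ckb, 21.9% of such stretches were shared with the pseudogenes Ckb-ps1, Ckb-ps2 and Gm12892. The first 2 were listed at 0 reads in all 14 libraries, and Gm12892 had at most 4 reads in a library.

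Ckm lies on the plus strand of chromosome 7 (GRCm38, 19404776 to 19422841) and Ckb on the minus strand of chromosome 12 (111669361 to 111672338). Ckmt2 lies on the minus strand of chromosome 13 (91853387 to 91876885). The 250 bases before the RefSeq start sites of these genes are given below in the direction of the gene (GRCm38.p6: Ckm chr7:19410844-19411093, plus strand; Ckb chr12:111672339-111672588, minus strand; Ckmt2 chr13:91876886-91877135, minus strand). They show the regulatory sequence in front of the 3 CK genes with many reads. Capitals mark matches, on either strand, to the E-box CANNTG, which muscle basic helix-loop-helix factors can bind, the TEAD motif GGAATG, the GATA motif GATAAG, the TATA motif TATAAA, and versions of the ERR and MEF2 motifs, TNAAGGTCA and TTAAAAATA.
Ckm: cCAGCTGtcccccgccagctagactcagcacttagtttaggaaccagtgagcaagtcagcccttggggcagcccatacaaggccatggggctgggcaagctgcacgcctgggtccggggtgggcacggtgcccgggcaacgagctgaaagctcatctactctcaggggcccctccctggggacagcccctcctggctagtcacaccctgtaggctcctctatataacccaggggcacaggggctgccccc
Ckb: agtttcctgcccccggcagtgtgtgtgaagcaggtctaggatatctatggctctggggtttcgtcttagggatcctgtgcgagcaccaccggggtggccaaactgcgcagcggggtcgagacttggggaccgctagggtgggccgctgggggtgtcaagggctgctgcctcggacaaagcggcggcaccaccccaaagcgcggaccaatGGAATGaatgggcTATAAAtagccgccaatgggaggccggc
Ckmt2: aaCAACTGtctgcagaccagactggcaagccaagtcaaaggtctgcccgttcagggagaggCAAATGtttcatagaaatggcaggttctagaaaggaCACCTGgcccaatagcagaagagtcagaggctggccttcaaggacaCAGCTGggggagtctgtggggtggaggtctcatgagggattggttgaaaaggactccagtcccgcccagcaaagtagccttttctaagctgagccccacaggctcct
Ckm held 1 E-box and Ckmt2 held 4, a motif found in 66.2% of 32841 promoter windows of this length. Ckb held none, but 1 GGAATG and 1 TATAAA, present in 12.6% and 12.4% of all windows, at 41 and 28 bases before the start site. No match overlapped another. The annotation used for gene positions begins Ckm upstream of the RefSeq start, so other start sites of this gene are not covered by the window. Matches of letters are a description and were not tested as binding sites.

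Levels of different genes were compared per kb of coding length. Ckm was the highest of the 6 genes, at 2135 CPM per kb on average over the 14 libraries (rank 40 of 13514 genes), and Ckmt2 followed at 1313 CPM per kb (rank 68). Slc6a8 stood at 109.6 CPM per kb, Ckb at 52.6, Gatm at 1.51 and Ckmt1 at 0.166. The order of Ckm and Ckmt2 depended on the length taken. Per kb of the annotated principal transcript, which is 2742 bases long for Ckm and 1486 for Ckmt2, Ckm stood at 889.8 and Ckmt2 at 1111 CPM per kb. Ckb was below Slc6a8 with either length.

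On the coding scale Ckm gave 60.9% ± 1.24 (SD, n = 4) of the CK subunit reads in WT-Sham, Ckmt2 37.8% ± 1.21 and Ckb 1.30% ± 0.0344. In HCN4F-Sham the shares were 61.7% ± 2.51 for Ckm, 36.8% ± 2.49 for Ckmt2 and 1.47% ± 0.162 for Ckb (SD, n = 4). In WT-TAC they were 62.1% ± 1.11 (SD, n = 2) for Ckm, 36.6% ± 1.12 for Ckmt2 and 1.34% ± 0.00255 for Ckb. In HCN4F-TAC they were 59.6% ± 2.24 (SD, n = 4), 38.5% ± 2.15 and 1.87% ± 0.251. The Ckb share overlapped between HCN4F-Sham (1.26 to 1.64%) and HCN4F-TAC (1.58 to 2.09%). The summed level of the 4 subunits was 3878 ± 316 CPM per kb in WT-Sham, 3550.1 ± 351 in HCN4F-Sham, 3375.5 ± 146 in WT-TAC and 3136 ± 126 in HCN4F-TAC. HCN4F-Sham (from 3245 CPM per kb) and HCN4F-TAC (up to 3268 CPM per kb) overlapped, and the sums were not tested.

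**Figure D1:**
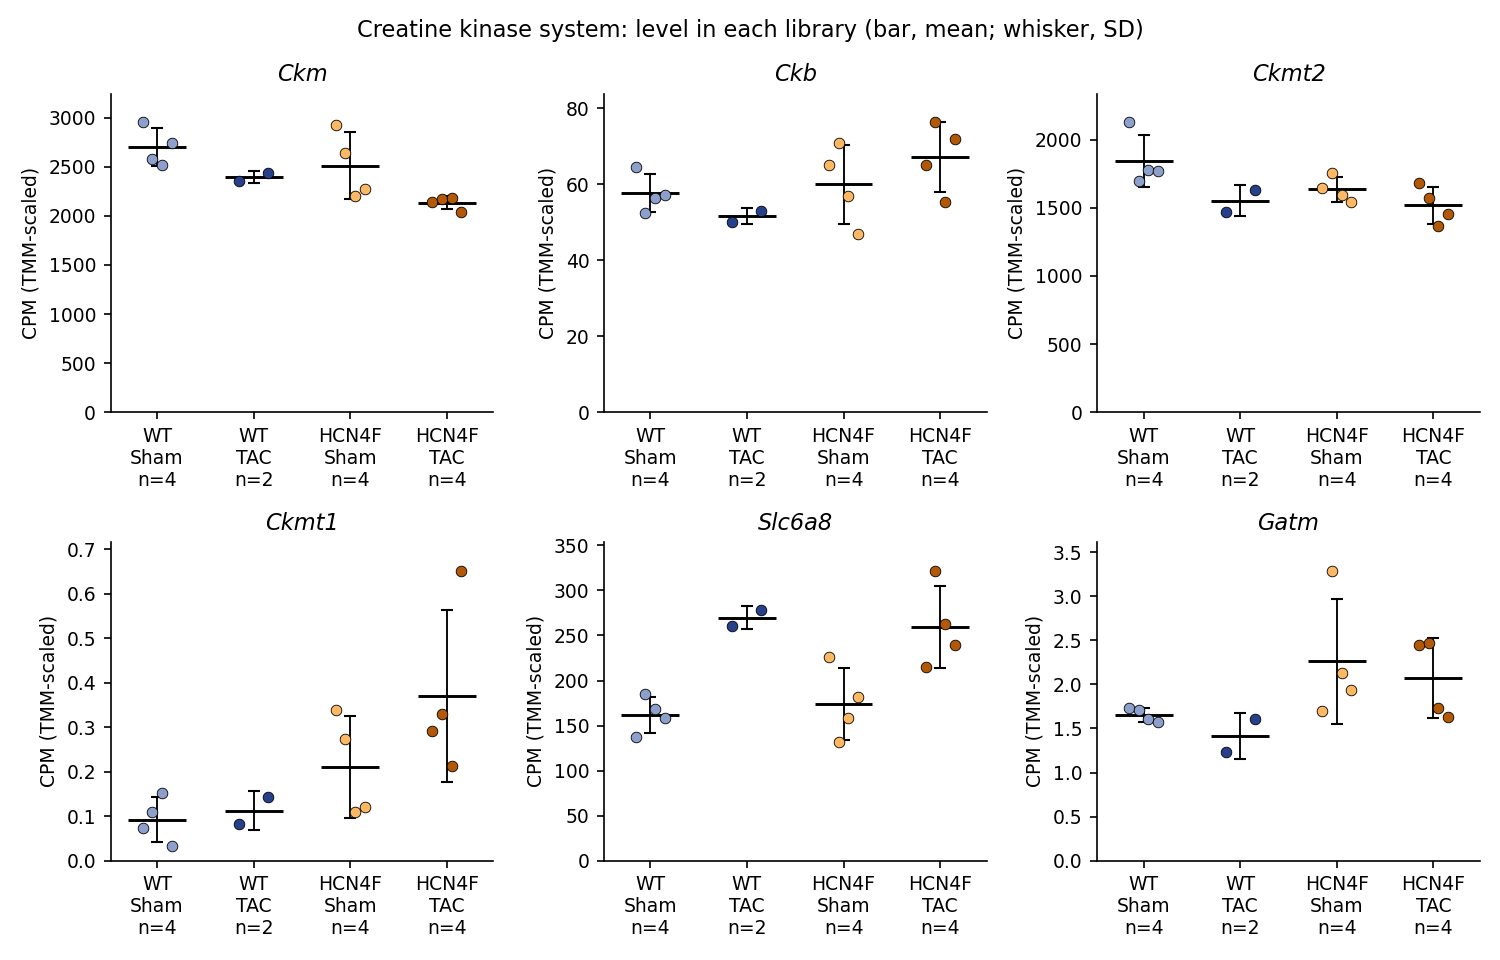
Each panel plots 1 gene, with the level in CPM (TMM-scaled) on the vertical axis from 0 and the 4 groups on the horizontal axis. Points are libraries, bars are means and whiskers are SDs. Slc6a8 sits between 215 and 322 CPM in the TAC libraries of both genotypes, and Ckm between 2042 and 2184 CPM in HCN4F-TAC.

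The question of the surgery comparisons was how the left ventricle responded to pressure overload within each genotype. Of the 5 tested genes, Slc6a8 alone passed the test in WT (adjusted p under 0.05; 4.54% of all tested genes passed) and in HCN4F (13.6% of all tested genes passed). It rose in both. At an unadjusted p under 0.05 there were 2 of 5 in WT (Slc6a8 and Ckmt2), against 22% of all tested genes, and 2 of 5 in HCN4F (Slc6a8 and Ckm), against 28.3%. With the rule that also requires a log2 fold change above 1 or below -1, none of the 5 passed in either, against 0.706% and 2.75% of all tested genes.

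Slc6a8 lies on the X chromosome (plus strand, 73673150 to 73682502) and carries creatine into the cell together with sodium and chloride. In WT-Sham its level was 137, 185, 168.5 and 158 CPM in replicates 1 to 4, and in WT-TAC 261 and 279 CPM. Both TAC libraries lay above all Sham libraries. In HCN4F-Sham it was 226, 132, 158 and 182 CPM, and in HCN4F-TAC 215, 322, 263 and 239 CPM. Here the groups overlapped, since replicate 1 of HCN4F-Sham was above replicate 1 of HCN4F-TAC.

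The means were 162 ± 19.99 CPM in WT-Sham (SD, n = 4) and 269.7 ± 12.9 in WT-TAC (SD, n = 2), a 1.66-fold difference with a log2 fold change of 0.73 (SE 0.18, adjusted p = 0.0367 by edgeR's quasi-likelihood test). In HCN4F they were 174 ± 39.98 and 259.7 ± 45.7 CPM (SD, n = 4 each), 1.49-fold, with a log2 fold change of 0.57 (SE 0.15, adjusted p = 0.0207 by edgeR). The difference between the genotypes in this change was -0.16 on the log2 scale (SE 0.24, adjusted p = 0.88 by edgeR), and ranged from -0.30, leaving out HCN4F-TAC replicate 2, to -0.010, leaving out HCN4F-Sham replicate 1. In WT the call was lost without WT-Sham replicate 1, 3 or 4 or either WT-TAC library (log2 fold change 0.66, 0.75, 0.72, and 0.78 or 0.69 without WT-TAC replicate 2 or 3, edgeR adjusted p = 0.0544 to 0.284). In HCN4F it was lost without HCN4F-Sham replicate 2 or 3 or HCN4F-TAC replicate 2 (0.46, 0.52 and 0.45, edgeR adjusted p = 0.0522 to 0.066), with the 2 groups fitted alone (0.57, 0.0544) and, in both genotypes, with no filter on low counts (0.76, 0.0973 in WT and 0.59, 0.083 in HCN4F). Adding the replicate number to the model as a block also ended the call in both genotypes, with values given in the closing section.

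Ckm, the main cytosolic subunit of the adult ventricle, was lower after TAC in the group means of both genotypes, and neither difference passed the test. WT-Sham gave 2951, 2579, 2521 and 2739.8 CPM in replicates 1 to 4, and WT-TAC 2352 and 2437 CPM. HCN4F-Sham gave 2929.5, 2639, 2200.2 and 2273 CPM, and HCN4F-TAC 2139.8, 2171, 2184 and 2042 CPM. In both genotypes every TAC library was below every Sham library, though in HCN4F by only a small margin. Group means were 2698 ± 193 and 2394 ± 60.3 CPM in WT, with a log2 fold change of -0.17 (SE 0.11, adjusted p = 0.359 by edgeR). In HCN4F they were 2510.5 ± 339 and 2134 ± 64.1 CPM, with -0.23 (SE 0.09, adjusted p = 0.0841 by edgeR). Without HCN4F-Sham replicate 3 the HCN4F value was -0.30 and passed (edgeR adjusted p = 0.0281), whereas without HCN4F-Sham replicate 1 it was -0.15 (edgeR adjusted p = 0.21). Ckm shares 451 exon bases with the antisense gene A930016O22Rik, which had 31 to 86 reads per library, and the use of strand in counting is not given in the sources used here.

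Ckmt2, which sits between the mitochondrial membranes of muscle, showed 2127, 1697, 1780.3 and 1774 CPM in WT-Sham and 1472 and 1634 CPM in WT-TAC. The groups did not overlap, and the log2 fold change was -0.25 (SE 0.11, adjusted p = 0.179 by edgeR). HCN4F-Sham held 1644, 1757, 1597 and 1544 CPM and HCN4F-TAC 1683, 1571, 1370.3 and 1457.5 CPM. These groups overlapped, and the log2 fold change was -0.11 (SE 0.09, adjusted p = 0.446 by edgeR; -0.16 to -0.059 without single libraries). Groups of TAC and Sham libraries did not overlap for 3 of the 5 tested genes in WT, against 39.2% of all tested genes, and for 1 of 5 in HCN4F, against 15.1% of all tested genes.

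Ckb stood at 64.6, 52.6, 56.3 and 57.0 CPM in WT-Sham and at 50.03 and 53.0 CPM in WT-TAC. In HCN4F-Sham it was 65.2, 70.8, 56.9 and 46.9 CPM, and in HCN4F-TAC 65.1, 76.3, 55.2 and 71.9 CPM. The groups overlapped in both genotypes. The log2 fold change on TAC was -0.16 in WT (SE 0.15, adjusted p = 0.549 by edgeR) and 0.16 in HCN4F (SE 0.12, adjusted p = 0.385 by edgeR). Without single libraries the WT value was -0.20 to -0.11, and that in HCN4F ranged from 0.063 (leaving out HCN4F-Sham replicate 4) to 0.25 (leaving out replicate 2 of the same group). The difference of these changes, 0.33 (SE 0.19), did not pass the test (adjusted p = 0.622 by edgeR).

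Gatm, on the minus strand of chromosome 2 (122594467 to 122611303), encodes glycine amidinotransferase, which is most abundant in kidney. It had 30 to 75 reads per library. Its means were 1.65 ± 0.0800 CPM in WT-Sham, 1.42 ± 0.262 in WT-TAC, 2.26 ± 0.707 in HCN4F-Sham and 2.07 ± 0.452 in HCN4F-TAC, and its log2 fold changes on TAC were -0.21 in WT (SE 0.27, adjusted p = 0.694 by edgeR) and -0.11 in HCN4F (SE 0.21, adjusted p = 0.77 by edgeR). The WT value was -0.043 without WT-TAC replicate 2 and -0.42 without replicate 3. Ckmt1, on the plus strand of chromosome 2 (121357714 to 121363737), had 1 to 4 reads per library in WT-Sham, 2 and 5 in WT-TAC, 3 to 9 in HCN4F-Sham and 6 to 16 in HCN4F-TAC. With no filter on low counts its log2 difference between HCN4F-TAC and WT-TAC was 1.59 (SE 0.66, unadjusted p = 0.0174, adjusted p = 0.419 by edgeR), and its adjusted p in the 5 comparisons was 0.395 to 1 by edgeR. The coding sequences of Ckmt1 and Ckmt2 share an identical run of 39 bases. In transcripts read in their own direction, another gene held 0 of 1571 stretches of 50 bases of Ckmt1 and 0 of 1437 of Ckmt2. On the opposite strand, Ckmt2 shares 84 exon bases with the antisense gene 1700119I11Rik, which had 1 to 27 reads per library.

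**Figure D2:**
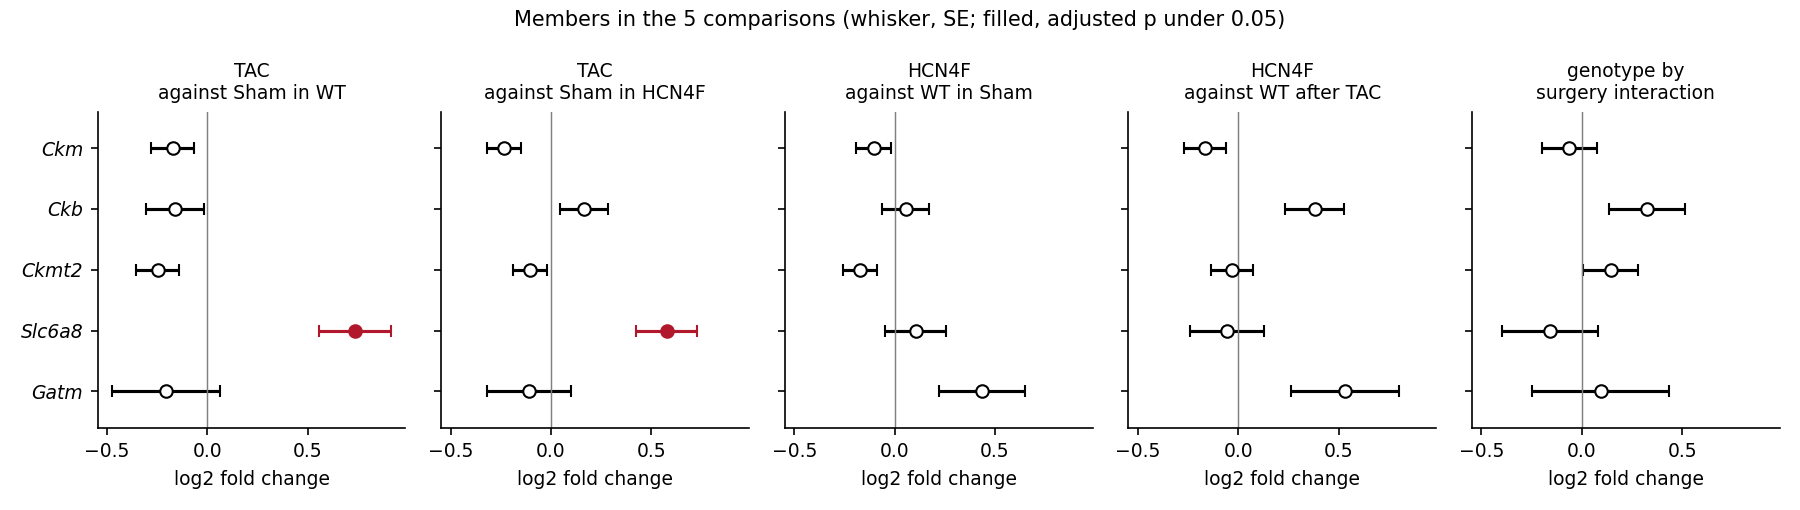
Each panel is 1 comparison, with the log2 fold change on the horizontal axis and the 5 tested genes as rows. Circles are estimates and whiskers their SEs, and filled circles have an adjusted p under 0.05. The filled circles are those of Slc6a8 at 0.73 and 0.57.

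The genotype comparisons asked how HCN4F ventricles differed from WT without and with overload. In Sham hearts 0 of the 5 genes passed by edgeR, where 0.471% of all tested genes did, 0 had an unadjusted p under 0.05, against 15.2% of all tested genes, and DESeq2 also called 0. With the fold change rule 0.209% of all tested genes passed. No member had groups that did not overlap (8.56% of all tested genes did). Log2 differences, HCN4F against WT, were -0.10 for Ckm, 0.06 for Ckb, -0.17 for Ckmt2, 0.11 for Slc6a8 and 0.44 for Gatm (edgeR adjusted p = 0.343 to 0.868). Without HCN4F-Sham replicate 2 the Gatm value was 0.22, and without WT-Sham replicate 1 the Ckmt2 value was -0.098. The Ckm value ranged from -0.19, leaving out HCN4F-Sham replicate 1, to -0.044, leaving out replicate 3 of that group.

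After TAC, 0 of 5 passed by edgeR, against 0.111% of all tested genes (0.0719% with the fold change rule), and DESeq2 called 0 as well. Ckb was the 1 of the 5 genes with an unadjusted p under 0.05, as were 12.5% of all tested genes. Its 4 HCN4F-TAC libraries (55.2 to 76.3 CPM) lay above both WT-TAC libraries, with means of 67.1 ± 9.18 and 51.5 ± 2.12 CPM and a log2 difference of 0.38 (SE 0.15, adjusted p = 0.3 by edgeR). Ckm lay lower in all 4 HCN4F-TAC libraries than in both WT-TAC libraries, with a log2 difference of -0.17 (SE 0.11, adjusted p = 0.544 by edgeR). Gatm lay higher in all 4, with 0.53 (SE 0.27, adjusted p = 0.429 by edgeR), though by a small margin. Its closest libraries were HCN4F-TAC replicate 4 (1.63 CPM, 40 reads) and WT-TAC replicate 3 (1.60 CPM, 56 reads). Groups did not overlap for these 3 of the 5 genes, against 22.2% of all tested genes. Ckmt2 and Slc6a8 differed by -0.03 and -0.05 (edgeR adjusted p = 0.937 each).

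In the genotype by surgery interaction 0 of the 5 genes passed by edgeR, as did 0% of all tested genes. None of the 5 had an unadjusted p under 0.05 (9.27% of all tested genes did), and DESeq2 called 0 of them.

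The ratio of Ckb to Ckm compares both genes within a library and does not depend on the scaling of libraries. Replicates 1 to 4 of WT-Sham had 21.9, 20.4, 22.3 and 20.8 Ckb reads per 1000 Ckm reads, and the WT-TAC libraries 21.3 and 21.8. In HCN4F-Sham it was 22.3, 26.8, 25.8 and 20.6, and in HCN4F-TAC 30.4, 35.1, 25.3 and 35.2. Replicates 1, 2 and 4 of HCN4F-TAC were above all other libraries, whereas replicate 3 lay among the HCN4F-Sham values. Per coding length these figures are the same, and per length of the annotated transcript the group means were 39.8 to 58.7.

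Group means were 21.4 ± 0.914 in WT-Sham, 23.9 ± 2.93 in HCN4F-Sham and 31.5 ± 4.72 in HCN4F-TAC (SD, n = 4 each), and 21.5 ± 0.345 in WT-TAC (SD, n = 2). Differences of the log2 ratio were tested with exact two-sided permutation tests, 5 in all. On TAC the log2 ratio differed by 0.01 in WT (SE 0.03, exact permutation p = 0.8) and by 0.39 in HCN4F (SE 0.14, exact permutation p = 0.0857, 0.214 after Benjamini-Hochberg adjustment). Without HCN4F-TAC replicate 3 the HCN4F difference was 0.50, with an unadjusted exact permutation p of 0.0286. Without any other single library it was 0.33 to 0.45, with exact permutation p = 0.0857 to 0.143. HCN4F exceeded WT after TAC by 0.54 (SE 0.11), with no overlap. The exact permutation p of 0.0667 (adjusted 0.214) was the smallest that 4 against 2 libraries allow, so neither this comparison nor TAC against Sham in WT, also 4 against 2, could pass 0.05. In Sham hearts the difference was 0.15 (SE 0.09, exact permutation p = 0.2), and it ranged from 0.096, leaving out HCN4F-Sham replicate 2, to 0.22, leaving out replicate 4 of that group (exact permutation p = 0.0571 to 0.4 over all single libraries left out). The interaction was 0.38 (SE 0.15, permutation of genotype within each surgery, exact p = 0.23). That permutation takes genotype to have no effect in either surgery, and not an equal effect in both. A genotype difference shared by both surgeries also widens its reference, so it does not test the interaction alone. None of the 3 comparisons that could pass 0.05 did so.

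**Figure D3:**
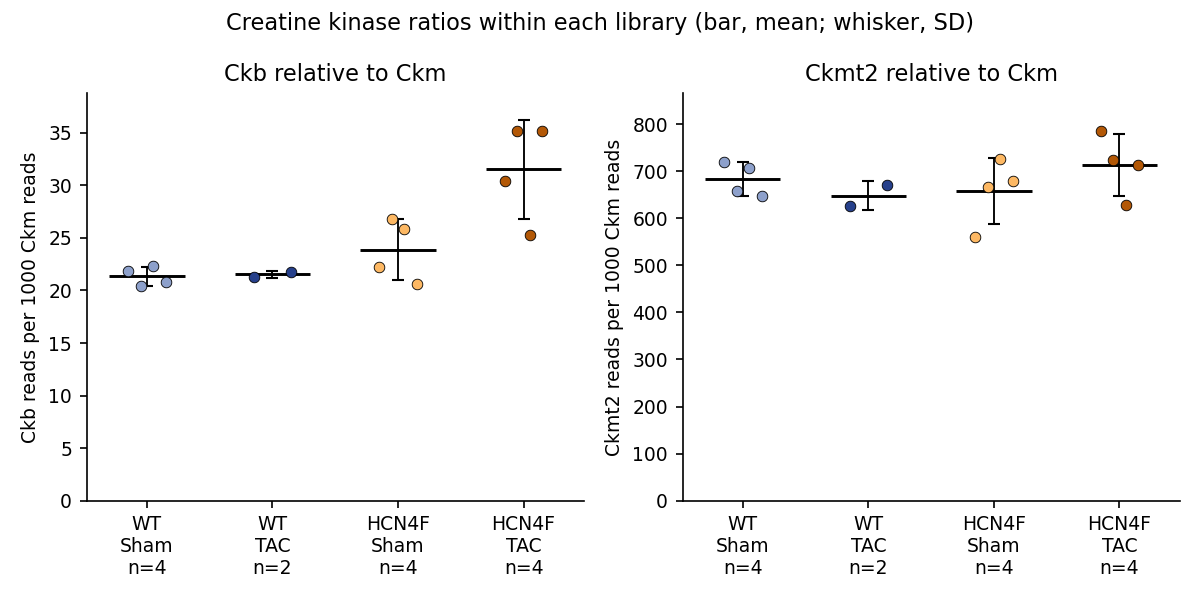
The left panel plots Ckb reads and the right panel Ckmt2 reads per 1000 Ckm reads of the same library, from 0, for the 4 groups. Points are libraries, bars means and whiskers SDs. In the left panel 3 of the 4 HCN4F-TAC libraries, at 30.4 to 35.2, lie above all others, and in the right panel the groups overlap.

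Ckmt2 reads per 1000 Ckm reads were 683 ± 35.8 in WT-Sham, 658 ± 69.4 in HCN4F-Sham, 648 ± 31.4 in WT-TAC and 713 ± 65.5 in HCN4F-TAC, within ranges that overlapped (561 to 787 over all libraries). These differences were not tested.

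By Pearson's r of log2 CPM over the 14 libraries, among 12563 genes, the genes most like Ckb were Tyrobp (0.96), an adaptor of myeloid cell receptors, Cotl1 (0.938), an actin-binding protein, and Lgals1 (0.93), a galectin. Within groups the r values were 0.96, 0.906 and 0.945. Tyrobp ranged from 4.78 to 6.02 CPM in WT-Sham, from 4.56 to 7.07 CPM in HCN4F-Sham, from 4.84 to 7.67 in HCN4F-TAC and was 4.03 and 4.41 in WT-TAC. The 6 macrophage markers summed to 153, 205, 123 and 187 CPM in HCN4F-TAC replicates 1 to 4, and to 131 and 125 CPM in WT-TAC replicates 2 and 3. They summed to 148, 132, 132 and 160 CPM in WT-Sham and to 169, 165, 172 and 134 CPM in HCN4F-Sham. The order of libraries was that of Ckb in HCN4F-TAC and not in the other groups. None of the 6 was at 0, and 0 of 6 passed the test in any of the 5 comparisons. Beside the marker counts that follow, 13.6% of all tested genes passed on TAC in HCN4F and 4.54% in WT. The 8 fibroblast markers summed to 998 to 1753 CPM in HCN4F-TAC against 781 and 938 in WT-TAC, 825 to 838 in WT-Sham and 792 to 1017 in HCN4F-Sham, and 5 of 8 rose on TAC in HCN4F. Atrial myocyte markers reached 55.3 CPM in HCN4F-TAC replicate 2, the library with the highest Ckb, against 3.46 to 18.4 CPM in the other libraries, and 1 of the 3 tested rose on TAC in HCN4F. That library also had the lowest share of mitochondrial reads (13.9%, against up to 23.1%) and the highest sum of 5 erythroid markers (365 CPM, against 70.9 to 221 CPM in the others), of which 0 of 5 passed in any comparison. The 5 Schwann cell markers summed to 4.12 to 8.46 CPM in HCN4F-TAC and 10.8 to 17.3 CPM in HCN4F-Sham, and 4 of 5 fell on TAC in HCN4F, whereas in WT-Sham and WT-TAC they summed to 10.2 to 12.5 and to 8.67 CPM, with 0 of 5 passing. The 6 smooth muscle markers summed to 243 CPM in HCN4F-TAC replicate 2, the lowest of all libraries, and to 314 to 601 CPM in the others, and 1 of 6 fell on TAC in WT. Of 6 lymphocyte markers, summing to 0.591 to 3.23 CPM, the 1 tested rose on TAC in HCN4F. The 6 endothelial markers summed to 797 to 1423 CPM, with 0 of 6 passing in any comparison, and the 5 adipocyte markers to at most 0.489 CPM. Without HCN4F-TAC replicate 2 the ratio difference between HCN4F-TAC and WT-TAC was 0.48. The part of other cell types in the Ckb values was not tested.

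**Figure D4:**
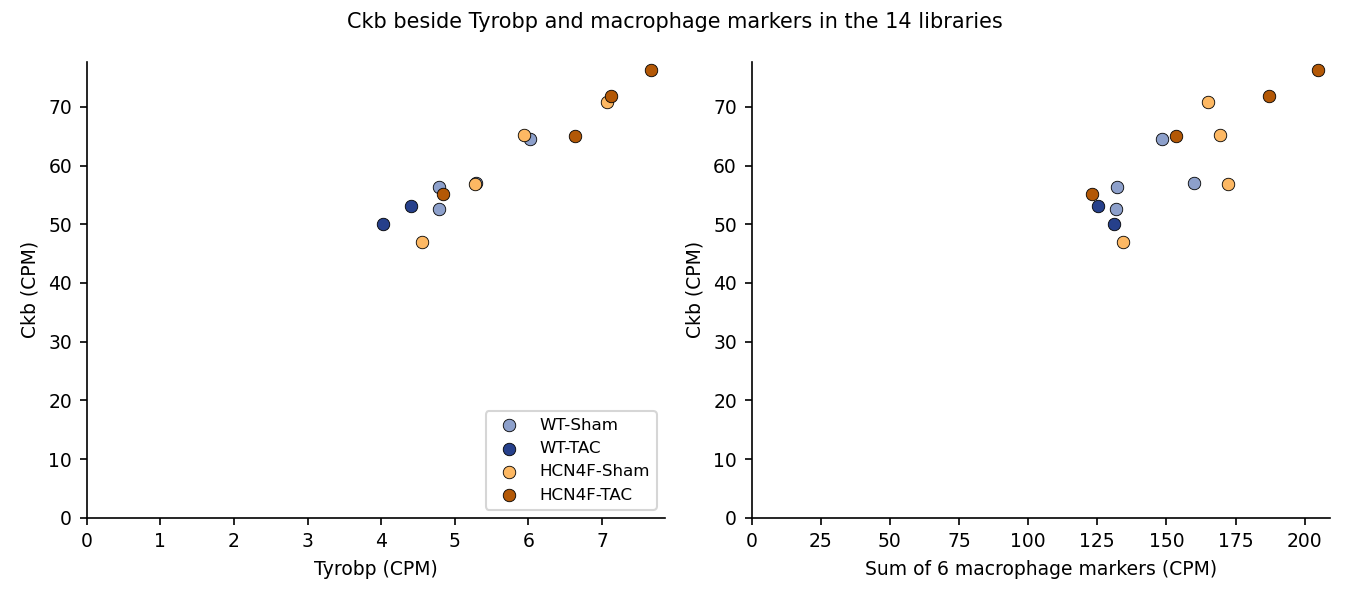
Ckb in CPM on the vertical axis is plotted against Tyrobp (left) and against the sum of 6 macrophage markers (right), both in CPM, for the 14 libraries coloured by group. The library with the highest Ckb (76.3 CPM) has the highest macrophage sum (205 CPM), whereas the lowest Ckb (46.9 CPM, HCN4F-Sham replicate 4) and the lowest sum (123 CPM, HCN4F-TAC replicate 3) are in different libraries.

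The genes most like Ckm were Ndufb8 (0.976) and Ndufa7 (0.967), both subunits of respiratory complex I, and Dohh (0.969), which modifies a translation factor. Those most like Ckmt2 were Gm13594 (0.911), Gng5 (0.907), a G protein subunit, and Psmb2 (0.896), a proteasome subunit. Slc6a8 varied most like Prune1 (0.961), Best3 (0.95), a bestrophin channel, and Ipo5 (0.95), a nuclear import receptor. Gatm varied most like B3galnt1 (0.918), Pgrmc1 (0.897) and Chst7 (0.842). Between members r was highest for Ckm and Ckmt2 over the 14 libraries (0.734, and 0.481 within groups), and for Ckb and Ckmt2 within groups (0.667, and 0.19 over the 14 libraries). Libraries share scaling and tissue composition, so these values describe likeness and carry no test.

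Markers of overload were examined in the same libraries. Acta1, skeletal alpha-actin, rose on TAC by 3.13 on the log2 scale in WT (adjusted p = 0.00189 by edgeR) and by 4.24 in HCN4F (adjusted p = 3.01e-05 by edgeR). The natriuretic peptide genes Nppa and Nppb and the fetal myosin gene Myh7 rose in HCN4F by 3.21, 2.26 and 2.46 (edgeR adjusted p = 0.00159 to 0.00251), and in WT had 0.93, 0.79 and 1.12 (edgeR adjusted p = 0.143 to 0.333). Myh6, the adult myosin, fell in HCN4F by 0.27 (adjusted p = 0.0358 by edgeR). Hcn4 passed in none of the 5 comparisons (edgeR adjusted p = 0.238 to 0.934).

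Genes with roles next to CK were described with 6 lists, to be read against the 4.54% of all tested genes that passed on TAC in WT, 13.6% in HCN4F and 0.471% between genotypes in Sham. At an unadjusted p under 0.05 the shares were 22% on TAC in WT, 15.2% between genotypes in Sham and 12.5% after TAC. For creatine synthesis, methyl supply and export, 0 of 10 tested genes passed in any comparison by edgeR, with 1 at an unadjusted p under 0.05 on TAC in WT (Ahcyl2) and 2 in each genotype comparison (Slc7a1, Slc7a2). This list includes Gamt, which completes creatine synthesis and had a log2 fold change on TAC of -0.37 in WT and -0.15 in HCN4F. For the adenylate kinases, which also even out ATP, ADP and AMP, 0 of 5 passed in any comparison, and Ak1 and Ak3 had an unadjusted p under 0.05 in Sham hearts.

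Among 6 genes of mitochondrial ADP/ATP and phosphate exchange, Slc25a4, the heart form of the adenine nucleotide carrier, fell on TAC in HCN4F by 0.23 (SE 0.07, adjusted p = 0.0472 by edgeR), and with DESeq2 size factors 0 of 6 passed. In WT Slc25a4 had a log2 fold change on TAC of -0.26 (SE 0.09, adjusted p = 0.112 by edgeR). The list's median log2 fold change was -0.16 on TAC in each genotype, against -0.02 in WT and -0.01 in HCN4F over all tested genes. Between genotypes it was -0.19 in Sham and -0.15 after TAC, where 0 of 6 passed by edgeR and 5 of 6 (Slc25a4, Slc25a5, Slc25a3, Vdac2 and Vdac3, all lower in HCN4F) and 1 of 6 (Slc25a3) had an unadjusted p under 0.05. Of 11 subunits and activators of AMP-activated protein kinase, which senses AMP, 2 rose on TAC in WT, Prkaa2 by 0.61 (SE 0.15, adjusted p = 0.0342 by edgeR) and Cab39 by 0.39 (SE 0.10, adjusted p = 0.0436 by edgeR). In HCN4F 3 rose, Prkab2 by 0.60, Prkag3 by 0.81 and Stradb by 0.39, and 2 fell, Prkab1 by 0.27 and Prkag1 by 0.33 (edgeR adjusted p = 0.0105 to 0.0484). With DESeq2 size factors 1 of these 2 passed as lower. The genes named for 1 genotype had the same sign in the other, where they did not pass. In WT Prkab2, Prkag3, Stradb, Prkab1 and Prkag1 had 0.14, 0.23, 0.29, -0.26 and -0.22. In HCN4F Prkaa2 and Cab39 had 0.24 and 0.23.

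Of 13 genes of AMP and adenosine metabolism, the nucleotidase Nt5c2 rose on TAC in HCN4F by 0.64 (SE 0.10, adjusted p = 0.00055 by edgeR) and stood at 0.35 in WT (adjusted p = 0.0971 by edgeR). Adssl1, the muscle adenylosuccinate synthase, was lower in HCN4F than in WT Sham hearts by -0.36 on the log2 scale (SE 0.06, adjusted p = 0.0179 by edgeR). The M-line of the sarcomere anchors part of the muscle CK. Of 6 genes of the M-line and titin, the myomesin gene Myom1 rose on TAC in WT by 0.36 (SE 0.08, adjusted p = 0.0272 by edgeR) and in HCN4F by 0.36 (SE 0.07, adjusted p = 0.00305 by edgeR). Myom2 and Myom3 rose in HCN4F by 0.47 and 0.74 (edgeR adjusted p = 0.0111 and 0.0133), from 1147 to 1585 and from 1.85 to 3.06 CPM. In WT they had 0.35 and 0.38 (edgeR adjusted p = 0.141 and 0.35). No gene of the 6 lists passed after TAC between genotypes or in the interaction, and none that passed had a log2 fold change above 1 or below -1.

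**Figure D5:**
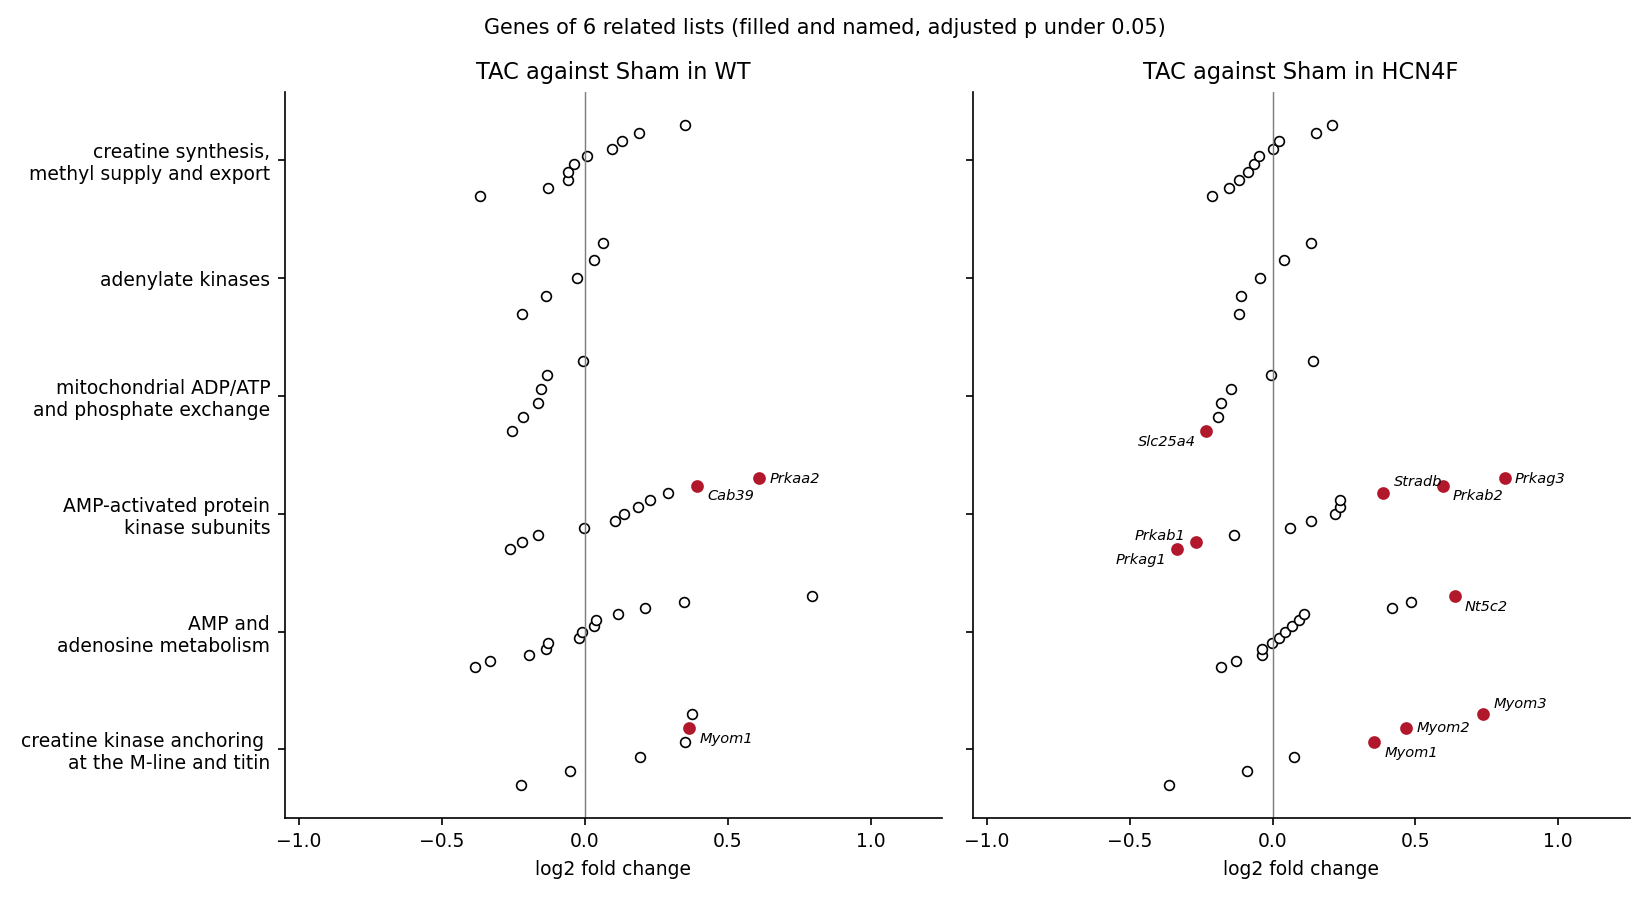
Log2 fold changes on TAC in WT (left) and HCN4F (right) are on the horizontal axis, with the tested genes of the 6 lists in rows. Filled, named points have an adjusted p under 0.05. Myom1 is filled in both panels, at 0.36 in each.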

How the data were processed

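Left ventricular mRNA, selected by poly-A, was sequenced on an Illumina platform. The authors deposited raw counts per gene, with no normalization. The submitters' processing notes name the build GRCm38, and the aligner, the counting program and the use of strand are not given in the sources used here. Groups came from the sample labels. The paper describes 16 samples, of which 14 libraries were used, and 2 further columns of per-sample values were not. Replicates differed by more than counting noise (chi-square per gene 6.1 to 60.2). The paper's methods call the replicates biological.

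Counts were filtered with filterByExpr by group, scaled with TMM and fitted in 1 model over the 4 groups in edgeR 4.0.16 (R 4.3.3, limma 3.58.1) with the robust quasi-likelihood test and Benjamini-Hochberg adjustment over 15292 genes. A gene passed at an adjusted p under 0.05. The study's own rule also asks for a log2 fold change above 1 or below -1, and its DESeq2 test (version 1.42.0) was run as an alternative. Coding length was chosen as the scale between genes after the levels were seen. Log2 CPM used a prior count of 2. Values ± are SDs. Gene IDs were matched to the mouse annotation GENCODE M21 (99.5% found), promoters to RefSeq, and sequences were aligned with Biopython. Slc6a8 is not in the promoter table. The ratio test was exact. The edgeR test was also run on simulated data with known changes, and the ratio test and the DESeq2 test were not.

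Named genes were the 6 members, genes of the lists that passed, the 3 genes most like each tested member with a mean CPM of at least 1, 5 overload markers and Hcn4. Genes named for an unadjusted p, Gamt and Myom values in WT were chosen after their values were seen. The members and the lists were chosen with earlier results of these data known.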

Additional observations from a re-analysis of the deposited data

How the results depend on the processing

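Of 405 single-gene values under an alternative, 381 kept their direction and side of the threshold, 13 lost the call (all for Slc6a8), 1 gained it (Ckm) and 10 changed sign. The number of members that passed on TAC, 1 in each genotype, was 0 with the fold change rule, 0 with no filter on low counts, 0 with the replicate block and, in HCN4F, 0 with the 2 groups fitted alone. It was 1 with DESeq2, its size factors, scaling without mitochondrial genes, a mean CPM of at least 1 and non-robust estimation, and 0 to 1 when single libraries were left out. The cause was not tested. Without the filter 29814 genes were tested. The other comparisons had 0 throughout.

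The replicate numbers did not pair the samples (3 of 18 same-numbered pairs had a correlation above 0.1, range -0.177 to 0.224). With the replicate block, Slc6a8 had log2 fold changes of 0.71 (adjusted p = 0.123 by edgeR) in WT and 0.57 (0.061) in HCN4F, and the block changed no other call of a member. The log2 ratio of Ckb to Ckm differed under it by 0.39 on TAC in HCN4F and by 0.47 between genotypes after TAC.

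Leaving out single libraries moved the ratio difference on TAC between -0.011 and 0.034 in WT and between 0.33 and 0.50 in HCN4F. Sign changes came from values near 0: Gatm on TAC in HCN4F (-0.22 to 0.11), Ckb (-0.034 to 0.16) and Slc6a8 (-0.044 to 0.22) between genotypes in Sham, Ckmt2 (-0.11 to 0.046) and Slc6a8 (-0.19 to 0.026) after TAC, and the interaction of Ckm (-0.12 to 0.021) and Gatm (-0.068 to 0.31). Of 108 list counts, 98 stayed within 1.5 times and 10 moved. WT-TAC rests on 2 libraries, and Gatm and Ckmt1 on few reads. Over all genes, DESeq2 called 1211 on TAC in WT against 694, 344 between genotypes in Sham against 72, 221 after TAC against 17, and 37 in the interaction against 0. With the 2 groups fitted alone the counts on TAC were 2009 in WT and 1287 in HCN4F (against 2081), and 3 between genotypes after TAC. With no filter they were 219 and 146 between genotypes in Sham and after TAC and 17 in the interaction, and with the replicate block 225 on TAC in WT and 41 and 8 between genotypes.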
